A study of Mus musculus with 45 samples.

Results

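The lungs of female Balb/c mice bearing 4T07 mammary tumors were compared with the lungs of healthy Control mice, in 6 libraries of the 45 in the series. The members were taken by tissue and inoculation label alone: 3 lungs of 4T07 mice (libraries 25, 26 and 27) and 3 lungs of Control mice (libraries 4, 5 and 6). The 4T07 mice had received 2000000 4T07 cells in 50 µL PBS in the mammary fat pad and were sampled 14 days later. The Control mice received no tumor cells. All mice, the controls included, also carried an implanted polymer scaffold, placed 2 weeks before inoculation at 7 to 8 weeks of age. The lungs of mice with 67NR or 4T1 tumors (3 each) and the spleens of 4T07 and Control mice (3 each) served only as points of comparison, and the labels do not say which lung and spleen came from the same mouse. 67NR, 4T07 and 4T1 are sister lines from a single mouse mammary tumor that differ in how far they spread: 67NR cells are known to stay in the primary tumor, 4T07 cells to leave it without forming visible lung nodules, and 4T1 cells to form lung metastases. Expression was measured by sequencing the 3′ end of transcripts, so that a gene's count does not grow with its length, and levels are given as counts per 1000000 counts of the library (CPM).

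The lung is built of alveolar type 1 cells for gas exchange, surfactant-making alveolar type 2 cells, airway epithelium, a dense capillary bed and supporting fibroblasts, and it holds resident macrophages and a marginated pool of neutrophils. Mammary tumors of this family are known to drive the release of neutrophils and their precursors, and the spleen of a tumor-bearing mouse becomes a site of blood formation. Neutrophils make their granule proteins in order, with primary granule enzymes such as elastase and myeloperoxidase in the earliest precursors, secondary granule proteins such as lactoferrin and neutrophilic granule protein later, and S100a8, S100a9 and the stefin A inhibitors in maturing and mature cells. The balance of these groups of genes is therefore a common way to describe the neutrophil population of a tissue.

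The 6 lung libraries held 4609634 to 6178621 counts, and 3 counts corresponded to 0.486 to 0.651 CPM. All 3 libraries labelled 4T07 lung held genes that mark spleen and exocrine pancreas, so they went in part against their tissue label, and no 4T07 lung without these genes was available. Tlx1, a transcription factor required for spleen formation, stood at 0.523, 0.541 and 0.324 CPM in the Control lungs, at 14.6, 13.8 and 11.1 CPM in the 4T07 lungs and at 16.7, 11.9 and 16.3 CPM in the 4T07 spleens. Spic, the regulator of red pulp macrophages, stood at 4.18, 2.16 and 1.78, at 30.3, 34.9 and 23.6 and at 50.2, 34.7 and 36.4 CPM in the same order. Pnlip, the pancreatic lipase made by acinar cells, stood at 0.174, 0 and 0.324 CPM in the Control lungs and 83.4, 90.8 and 67.7 CPM in the 4T07 lungs. The 4T07 lungs thus lay above every Control lung for all 3 genes. Tlx1 and Pnlip stayed under 3 CPM in every 67NR and 4T1 lung. Among the 4T07 spleens Pnlip was unequal, at 0.206, 72.0 and 84.5 CPM. Of the 12 endocrine pancreas genes none had enough counts to be tested, and their sum was 0.413 to 1.48 CPM in the 4T07 lungs.

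To place each library between the tissues, genes were classed without use of the 4T07 or Control lungs. A gene was lung-restricted when its mean in the 67NR and 4T1 lungs was at least 5 CPM and over 20 times that in the 4T07 spleens, spleen-restricted when the reverse held, and shared when both means were at least 5 CPM and within 2-fold. The median lung-restricted gene stood at 30.5, 20.2 and 45.5% of its Control lung mean in 4T07 lungs 25, 26 and 27. This was taken over the 666 lung-restricted genes with a Control lung mean of at least 5 CPM. The median spleen-restricted gene stood at 74.8, 85.3 and 54.4% of its 4T07 spleen mean in the same libraries. Library 26 was lowest in lung genes and highest in spleen genes, and library 27 was the reverse. In the Control lungs the spleen-restricted median was 1.66, 1.36 and 0.899%, and in the 4T1 lungs it was 5.04, 2.53 and 3.06%. How much of any difference reported here comes with spleen or pancreas RNA was not tested, and it cannot be told apart from a change in the lung tissue itself, because no 4T07 lung lacked these genes. In bulk tissue fewer cells of a type and less RNA per cell cannot be told apart either.

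**Figure D1:**
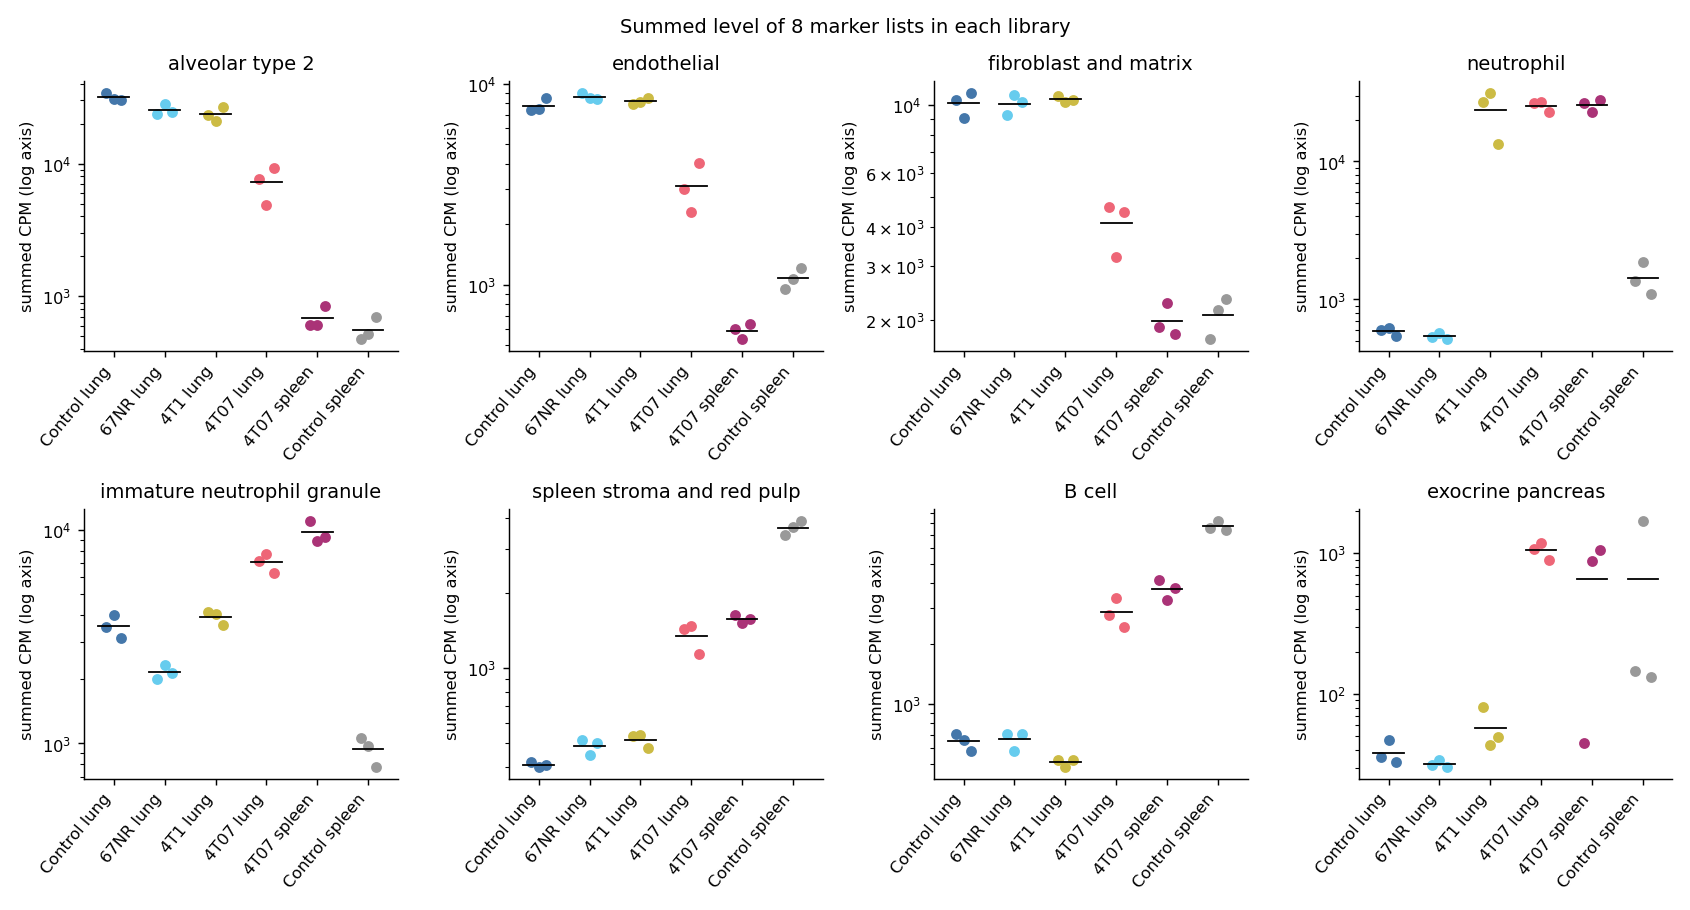
Summed CPM (log axis) of 8 marker lists in each library, with 1 point per library, the bar at the group mean and 3 libraries per group. The 4T07 lungs have a mean between those of Control lungs and 4T07 spleens for the alveolar type 2, endothelial, fibroblast, spleen stroma and B cell lists, beside the 4T1 lungs for the neutrophil list and at 897 to 1178 CPM for the exocrine pancreas list.

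Of 19566 genes with more than 10 counts over the 6 lungs, 3243 (16.6%) were higher and 2948 (15.1%) were lower in 4T07 than in Control lungs, at an adjusted p below 0.10 in edgeR's quasi-likelihood test and a change of more than 2-fold. The classes split these calls. The table held 188 spleen-restricted genes, all of which passed the filter on counts, and all were higher, with a median log2 fold change of 5.76, or 5.58 with the 17 genes absent from all Control lungs set at a floor of 3 counts. Of the 710 lung-restricted genes, 559 were lower and 2 were higher, with a median of -1.51. Of the 6714 shared genes, 561 were higher and 138 were lower, with a median of 0.13, against -0.01 over all genes. The difference between the effect of 4T07 in lungs and its effect in spleens, tested as an interaction, was called higher in lungs for 2553 genes (13.0%) and lower for 1672 (8.55%). The other lungs were far closer to the same Control lungs. In 67NR lungs 472 genes (2.41%) were higher and 378 (1.93%) lower, and in 4T1 lungs 750 (3.83%) were higher and 240 (1.23%) lower.

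**Figure D2:**
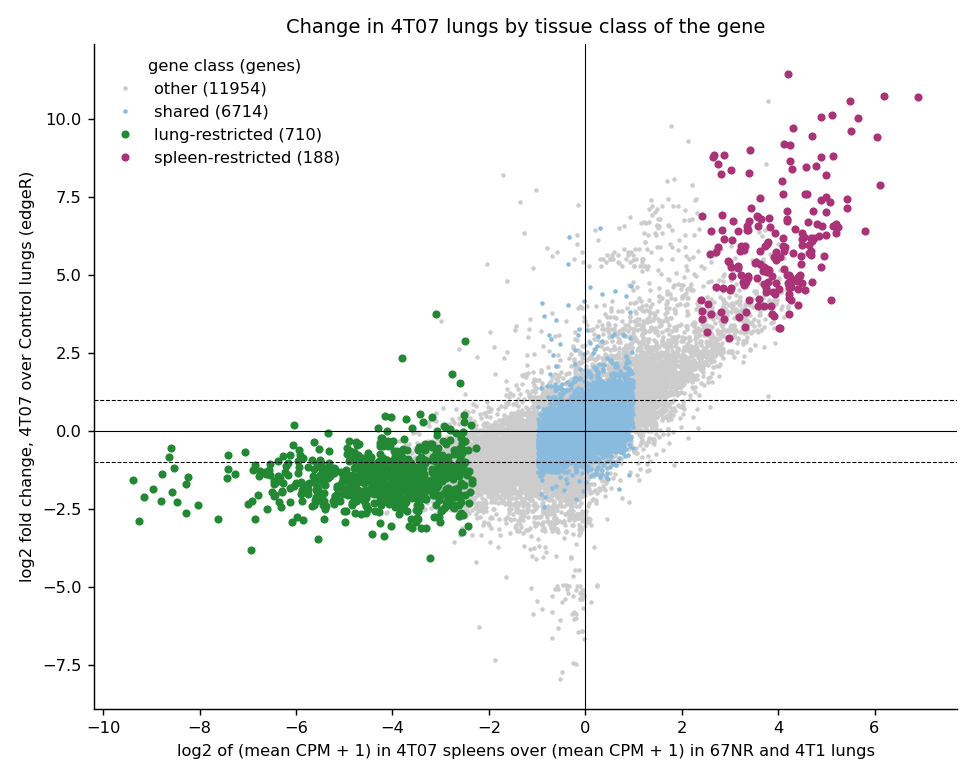
Each point is 1 of 19566 genes: the horizontal axis is the log2 ratio of mean CPM + 1 in 4T07 spleens to that in 67NR and 4T1 lungs, which sets the class, and the vertical axis is the edgeR log2 fold change of 4T07 over Control lungs. Dashed lines mark a 2-fold change. Spleen-restricted genes (median 5.76) lie above the upper line and most lung-restricted genes (559 of 710) were called lower.

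A scaling on lung-restricted genes alone was therefore run beside the usual one, which sets the median change of those genes near 0 (0.03) and moves the median of all genes to 1.63. On it 13662 genes (69.8%) were higher and 169 (0.864%) were lower. It describes how a lung gene stands relative to the other lung genes of the same library. It raises all genes by nearly the same amount, so a gene that is moderately lower on the usual scaling changes sign by construction. For genes that are not lung-restricted it is not informative about the lung tissue, since it does not remove RNA of another tissue.

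Alveolar type 2 cells make surfactant, and 17 of 20 tested genes of this list were lower in 4T07 lungs, none was higher, and the median was -1.66. Sftpc, surfactant protein C, stood at 13286, 12106 and 11741 CPM in the Control lungs and 2855, 1798 and 3620 CPM in the 4T07 lungs, a log2 change of -2.11 ± 0.21 (SE, adjusted p = 1.95e-07). Sftpa1, surfactant protein A, fell from 8629, 7321 and 7188 CPM to 1155, 629 and 1234 CPM, a change of -2.89 ± 0.22 (SE, adjusted p = 4.77e-09). Neither gene overlapped between the groups, and library 26 was the lowest for both. Sftpb, surfactant protein B, was at 960, 865 and 1285 CPM in the Control and 564, 350 and 752 CPM in the 4T07 lungs, and its change of -0.84 did not reach 2-fold. On the lung-restricted scaling the list median was -0.09, and the surfactant genes parted: Sftpa1 was at -1.32 (adjusted p = 1.97e-05) and Sftpc at -0.55, while Sftpb turned to 0.71. Sftpa1 was called lower and the other pair did not reach 2-fold.

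Among lung-restricted genes S100g, Fabp1, Sfta2, Itih4 and Fam162b fell most. S100g, a calcium-binding protein of alveolar epithelium, stood at 561, 526 and 355 CPM in Control lungs and 38.5, 22.1 and 38.2 CPM in 4T07 lungs, with a log2 change of -3.82 ± 0.23 (SE, adjusted p = 3.08e-10). Fabp1, a fatty acid binding protein, went from 38.4, 57.9 and 22.7 CPM to 2.12, 1.65 and 3.04 CPM, with a change of -4.06 ± 0.34 (SE, adjusted p = 1.99e-08). Both were far under every Control lung. Sfta2, a surfactant-associated protein, changed by -3.47, Itih4 by -3.35 and Fam162b by -3.31 on the log2 scale. On the lung-restricted scaling these 5 stood at -2.24 for S100g, -2.52 for Fabp1, -1.95 for Sfta2, -1.81 for Itih4 and -1.72 for Fam162b. As they were chosen for the largest falls of the class, their place below its median is a description. The lungs of mice with the other tumors share the Control lungs with this comparison. On the same scaling S100g was at -1.61 in 67NR and -0.71 in 4T1 lungs, and Fabp1 at -1.57 and -1.31. S100g in 4T07 lungs was -1.52 relative to 4T1 lungs and -0.63 relative to 67NR lungs on that scaling, given without a test since the gene was chosen on the same 4T07 lungs.

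Over all 710 lung-restricted genes, 40 were lower and 64 were higher than the rest of the class on this scaling. Of the alveolar type 1 list, genes of the flat gas exchange cell, 14 of 19 were lower on the usual scaling (median -1.46), and on the lung-restricted scaling the median was 0.15. Ager, the type 1 receptor for glycation end products, stood at 885, 760 and 1108 CPM in Control and 405, 218 and 336 CPM in 4T07 lungs. Its change of -1.46 ± 0.19 (SE, adjusted p = 4.07e-06) became 0.15 relative to other lung genes. Hopx, a homeobox protein of the same cells, was at 621, 512 and 716 CPM in Control and 329, 242 and 469 CPM in 4T07 lungs, and its -0.78 turned to 0.80. Neither value of Hopx reached 2-fold.

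Airway genes were unequal in the same way. Of 23 tested club, goblet and ciliated genes, 11 were lower and 1 (Krt5, at under 2 CPM in each 4T07 lung and not called without library 25) was higher, with a median of -1.19 that turned to 0.32 on the lung-restricted scaling. Scgb1a1, the club cell secretory protein, stood at 11150, 14922 and 15706 CPM in Control lungs and 6593, 2698 and 8344 CPM in 4T07 lungs, a change of -1.19 ± 0.28 (SE, adjusted p = 0.00168) that fell under 2-fold without library 26. Scgb3a2, another secretoglobin, was at 1827, 2277 and 1777 CPM and 320, 95.2 and 511 CPM, a change of -2.62 ± 0.35 (SE, adjusted p = 5.95e-06), and it stayed lower relative to lung genes at -1.20. Foxj1, the regulator of motile cilia, was at 3.66, 5.41 and 7.12 CPM in Control and 5.08, 3.92 and 12.4 CPM in 4T07 lungs. Its groups overlapped and its change of 0.45 was not called and turned to -0.20 without library 27. Relative to other lung genes Foxj1 was higher, at 1.95 (adjusted p = 4.00e-05), and in 67NR lungs it stood at 17.6, 29.4 and 28.4 CPM. The only lung-restricted genes called higher on the usual scaling were Ccdc187 and the cilia and flagella associated Cfap65, at 1.53 and 1.83. Each was highest in library 27, and each was also called higher in 67NR than in Control lungs, at 2.08 and 2.54. This pair is named because it is the whole of that count, chosen after its values were seen.

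**Figure D3:**
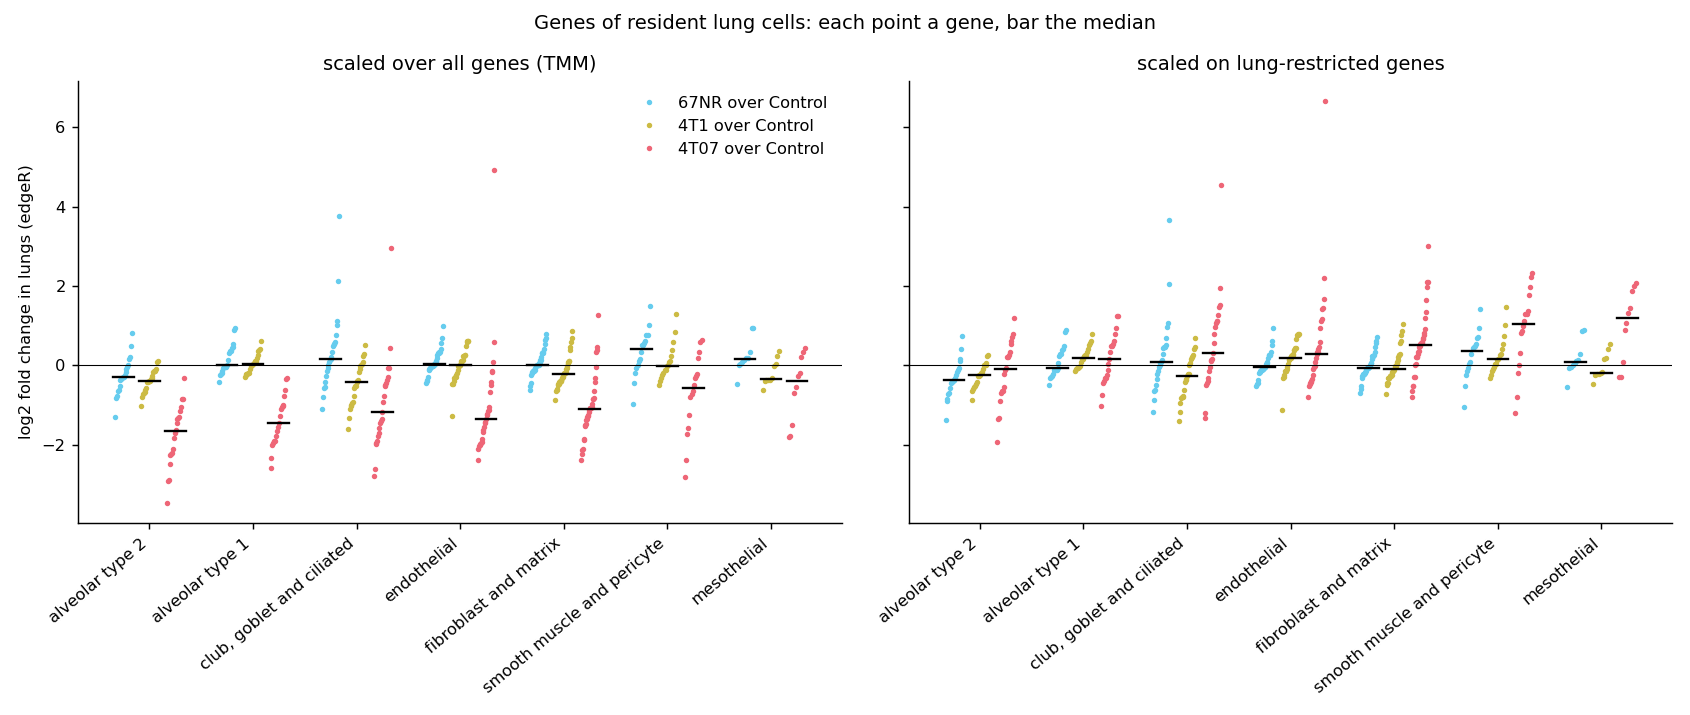
Log2 fold changes over Control lungs of the genes of 7 lists of resident lung cells (1 point per gene, bar at the list median), in 67NR, 4T1 and 4T07 lungs, with the usual scaling on the left and the scaling on lung-restricted genes on the right. All 3 comparisons share the Control lungs. The alveolar type 2 median of 4T07 lungs moves from -1.66 to -0.09 and the endothelial median from -1.36 to 0.28.

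Endothelial genes fell together: 19 of 27 were lower, and the only one higher was Ackr1, the venular chemokine receptor, which was itself spleen-restricted. Their median was -1.36 and turned to 0.28 on the lung-restricted scaling. Of the 27 genes 12 were lung-restricted, and for the rest that scaling is not informative about the lung tissue. Cdh5, the endothelial cadherin, stood at 425, 437 and 415 CPM in Control and 111, 103 and 182 CPM in 4T07 lungs, a change of -1.64 ± 0.18 (SE, adjusted p = 3.92e-07) that shrank to -0.05 relative to lung genes. Kdr, the main receptor for vascular endothelial growth factor, went from 1522, 1407 and 1564 CPM to 555, 402 and 642 CPM, a change of -1.44 that turned to 0.17. Cldn5, a tight junction protein of endothelium, was at 220, 205 and 218 CPM in Control and 136, 113 and 192 CPM in 4T07 lungs, so its groups did not overlap, yet its -0.49 was under 2-fold and turned to 1.10 relative to lung genes. On that scaling Cldn5 was also higher than in 4T1 lungs by 0.71 and than in 67NR lungs by 0.92, both under 2-fold.

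Fibroblast and matrix genes were lower in 20 of 32 cases, with a median of -1.10 that turned to 0.52 on the lung-restricted scaling, and 1 gene, the fibrillar collagen Col5a1, was higher (1.27). Only 4 of the 32 were lung-restricted, so the scaled median is not informative about the lung tissue. Fn1, fibronectin, was at 830, 665 and 706 CPM in Control and 284, 246 and 345 CPM in 4T07 lungs (-1.28), and Postn, a matrix protein of activated fibroblasts, at 160, 210 and 191 CPM and 34.1, 26.2 and 41.9 CPM (-2.40). Both matrix proteins are named as factors of the pre-metastatic niche. Fn1 turned to 0.35 and Postn shrank to -0.80 on the lung-restricted scaling. Col1a1, collagen I, at -0.32, was not called and turned to 1.34. Of the smooth muscle and pericyte list 5 of 16 were lower, and of the mesothelial list 3 of 10.

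Neutrophil genes rose almost without exception. The sum of the 26-gene neutrophil list was 543 to 624 CPM in Control lungs, 22758 to 26798 CPM in 4T07 lungs, 13285 to 31165 CPM in 4T1 lungs and 22682 to 27845 CPM in 4T07 spleens. Of 24 tested genes 23 were higher than in Control lungs and none was lower. S100a8, a subunit of calprotectin, rose from 124, 127 and 103 CPM in Control lungs to 11806, 12347 and 10221 CPM in 4T07 lungs, a log2 change of 6.66 ± 0.31 (SE, adjusted p = 2.12e-11). Retnlg, a resistin-like protein of mature neutrophils, rose from 26.8, 15.0 and 10.7 CPM to 281, 316 and 307 CPM, a change of 4.16 ± 0.33 (SE, adjusted p = 8.54e-09). Every 4T07 lung was far above every Control lung for both. In 67NR lungs, S100a8 was at 91.0, 118 and 74.8 CPM, no higher than in Control lungs, and the direct contrast of 4T07 with 67NR lungs was 7.08 ± 0.32 (SE, adjusted p = 1.36e-11). In 4T1 lungs, where spleen genes were low, S100a8 was at 12788, 13711 and 6044 CPM, and 4T07 lungs differed from them by 0.12 (adjusted p = 0.732). In 4T07 spleens it was at 13611, 11010 and 14620 CPM, again without a called difference from 4T07 lungs (-0.40, adjusted p = 0.298). S100a9, the partner subunit, changed by 6.67, the lipocalin Lcn2 by 3.55 and Wfdc21 by 4.66, or 5.26 without Control library 5.

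Of the 15 genes listed for immature granules, 11 were higher and 1 was lower. Mpo, myeloperoxidase, stood at 0.872, 0.541 and 0.162 CPM in Control lungs, 755, 901 and 668 CPM in 4T07 lungs, 48.8, 46.04 and 27.3 CPM in 4T1 lungs and 826, 971 and 1107 CPM in 4T07 spleens. Elane, neutrophil elastase, had 2 counts in all 3 Control lungs together and 3082 in the 4T07 lungs, a ratio of 1898 per library size (95% exact binomial interval 525 to 15679, covering counting error only). It stood at 235, 287 and 127 CPM in the 4T07 lungs and 428, 483 and 482 CPM in the 4T07 spleens. The 4T07 lungs thus stood far above Control and 4T1 lungs, and for Elane below the spleens. Tested directly, Mpo was higher in 4T07 than in 4T1 lungs by 4.29 ± 0.23 (SE, adjusted p = 1.57e-10) and Elane by 5.30 ± 0.37 (SE, adjusted p = 2.52e-09), and the difference of 4T07 lungs from 4T07 spleens was -1.32 ± 0.26 (SE, adjusted p = 0.00146) for Elane. Prtn3, proteinase 3, had 0, 1 and 4 counts in the Control lungs and changed by 10.02, or 11.49 without Control library 6. Ctsg, cathepsin G, had 3, 1 and 0 counts there and changed by 10.13, or 11.38 without Control library 4 and 9.53 without Control library 6. The secondary granule genes Ngp, Camp and Ltf changed by 10.55, 9.71 and 5.83, and Ngp by 11.33 without Control library 4. The lower gene was Lyz2, a lysozyme that macrophages and alveolar type 2 cells also make, at -1.32, which turned to 0.34 on the lung-restricted scaling. Of the 15, 7 were spleen-restricted.

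The 2 groups of neutrophil genes therefore stood apart in the direct comparison with 4T1 lungs, which rests on no Control lung. Over all genes tested, 2586 (13.2%) were higher and 2462 (12.6%) lower. In the immature granule list 10 of 15 genes were higher in 4T07 lungs and none was lower. That list mixes primary and secondary granule genes, so its counts do not separate early from later precursors. In the neutrophil list 3 of 24 were higher (Lcn2, Cd177 and Trem3) and 12 were lower, among them Retnlg (-1.13) and the chemokine receptor Cxcr2 (-1.43). Cxcr2 was chosen after its values were seen. Against 67NR lungs 3097 genes (15.8%) were higher and 3196 (16.3%) lower. There 23 neutrophil and 13 immature granule genes were higher and none of either list was lower.

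The stretches of 250 bases upstream of the start site are shown for an early granule gene, a late gene and a gene that stood above both Control lungs and 4T07 spleens. The late gene, S100a8, had no called difference from 4T1 lungs or 4T07 spleens. They are RefSeq sequences of build GRCm38.p6, a C57BL/6J reference, written 5′ to 3′ on the gene's strand. Capitals mark AGGAAGT or its reverse complement ACTTCCT, the core read by the Ets family factor PU.1, which is required for myeloid cells. The letters were chosen after the sequences had been read. They occur on either strand in 7.69% of all 32851 promoter windows of this length. They occur in 7 of 12 windows of the immature granule list and in 5 of 22 of the neutrophil list. A match is a description of letters, not a bound site.
Elane, chr10:79886062-79886311, plus strand: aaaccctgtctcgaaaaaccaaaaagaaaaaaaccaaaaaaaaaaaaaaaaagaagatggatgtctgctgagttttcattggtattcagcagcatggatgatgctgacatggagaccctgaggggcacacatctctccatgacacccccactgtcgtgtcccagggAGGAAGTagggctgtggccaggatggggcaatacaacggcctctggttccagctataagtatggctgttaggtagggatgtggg
S100a8, chr3:90668821-90669070, plus strand: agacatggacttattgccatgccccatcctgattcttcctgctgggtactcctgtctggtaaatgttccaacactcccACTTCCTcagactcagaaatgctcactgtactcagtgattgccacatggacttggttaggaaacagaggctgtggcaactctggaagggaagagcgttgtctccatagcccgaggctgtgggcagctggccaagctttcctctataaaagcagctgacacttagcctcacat
Slfn4, chr11:83174936-83175185, plus strand: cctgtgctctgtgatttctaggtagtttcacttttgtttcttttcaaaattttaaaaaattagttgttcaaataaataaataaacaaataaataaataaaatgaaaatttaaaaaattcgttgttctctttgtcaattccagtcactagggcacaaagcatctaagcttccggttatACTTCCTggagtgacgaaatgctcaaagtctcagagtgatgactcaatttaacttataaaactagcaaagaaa

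Some genes in 4T07 lungs lay outside the range spanned by Control lungs and 4T07 spleens. Over all genes, 2364 (12.1%) were higher and 392 (2.00%) were lower in 4T07 lungs than in 4T07 spleens, the latter count falling to 196 without library 27 and to 233 without spleen 29. Called higher against both Control lungs and 4T07 spleens were 58 genes (0.296%), which fell to 24 without library 27 and to 37 in DESeq2. Without a test, 253 called genes (1.29%) lay above every library of both groups and 41 (0.210%) lay below every library of both. The 10 of the 58 with the highest level were Stfa3, Slfn4, Cstdc4, Crebzf, Lilr4b, Clca1, Gm18899, Prok2, Gm26236 and Slc2a4rg-ps, and the first 6 of them were called in every leave-one-out fit of the 4T07 lungs.

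Of these, Stfa3, a stefin A protease inhibitor of neutrophils, stood at 0.174, 0.361 and 0.324 CPM in Control lungs, 94.2, 82.6 and 82.4 CPM in 4T07 lungs and 8.24, 31.8 and 49.3 CPM in 4T07 spleens. Slfn4, a schlafen protein of myeloid cells, stood at 0.872, 1.62 and 1.94, at 41.7, 66.7 and 66.2 and at 27.8, 14.3 and 24.6 CPM. Cstdc4, a further stefin, stood at 1.92, 2.71 and 1.46, at 47.2, 57.8 and 57.7 and at 17.9, 22.8 and 24.9 CPM. For all 3 the lowest 4T07 lung was above the highest 4T07 spleen. These genes were taken from those called higher than the 4T07 spleens, so their p-values against the spleens restate that choice. The log2 difference from the spleens was 1.32 ± 0.38 (SE, adjusted p = 0.0224) for Stfa3, 1.20 ± 0.25 (SE, adjusted p = 0.00285) for Slfn4 and 1.10 ± 0.21 (SE, adjusted p = 0.0014) for Cstdc4. In 4T1 lungs they stood at 194, 324 and 76.0 CPM for Stfa3, 54.9, 76.0 and 30.4 CPM for Slfn4 and 143, 193 and 76.0 CPM for Cstdc4, and 4T07 lungs were lower than these for Stfa3 (-1.16, adjusted p = 0.00475) and Cstdc4 (-1.30, adjusted p = 2.96e-04). Stefin A and Lilr4b genes have near-identical copies, so the counts of single members are uncertain.

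Prok2, a secreted prokineticin of neutrophils, was at 0.523, 0.541 and 0.647 CPM in Control lungs, 12.7, 23.9 and 32.8 CPM in 4T07 lungs and 4.32, 7.25 and 13.5 CPM in 4T07 spleens, so its lowest lung overlapped the highest spleen, and it was not among the genes called higher than both without library 27. Lilr4b, an inhibitory receptor of myeloid cells, differed from the spleens by 1.18. Crebzf, a widely expressed transcription cofactor, rose by 1.31 against Control lungs. Clca1, a secreted protein of mucous cells, was at 1.39, 0.361 and 0.162 CPM in Control lungs, 12.1, 8.67 and 70.5 CPM in 4T07 lungs and 0 in each 4T07 spleen. It was highest in library 27, and its change of 5.59 against Control lungs was 4.05 without that library and 6.84 without Control library 4. It was also at most 1.27 CPM in the 67NR and 4T1 lungs.

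**Figure D4:**
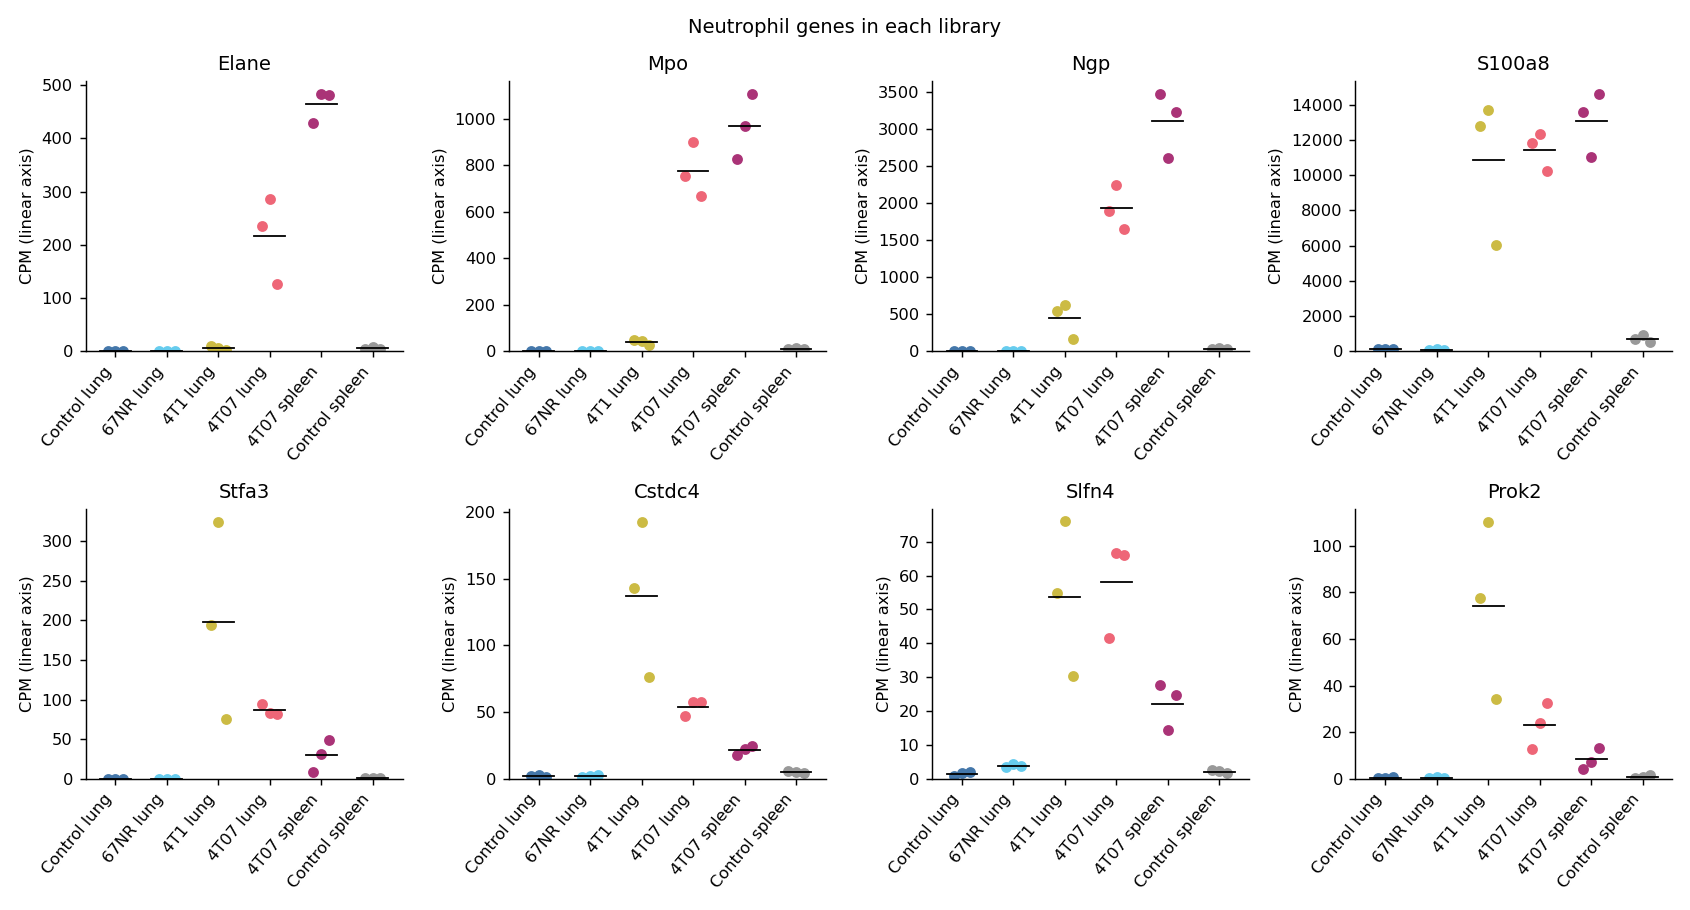
CPM (linear axis from 0) of 8 neutrophil genes in each library, 1 point per library, bar at the mean, 3 libraries per group. Elane, Mpo and Ngp are high in 4T07 lungs and spleens and lower in 4T1 lungs, whereas Stfa3, Cstdc4 and Prok2 have their highest mean in 4T1 lungs, and Slfn4 stands at 41.7, 66.7 and 66.2 CPM in 4T07 lungs.

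Other blood cell lists rose together with the spleen genes. All 23 tested erythroid genes were higher (median 6.15), and 14 of them were spleen-restricted. Hba-a1, an alpha globin, stood at 2623, 2265 and 3294 CPM in Control and 15358, 22914 and 15115 CPM in 4T07 lungs, a change of 2.77 ± 0.28 (SE, adjusted p = 1.69e-07). It was also called higher than in Control lungs in 67NR (1.03) and 4T1 lungs (1.33). Alas2, the first enzyme of heme synthesis in red cells, changed by 1.96 and Hbb-bs, a beta globin, by 1.34. Alpha and beta globin copies share most of their sequence, so single globin genes are uncertain. All 14 platelet and megakaryocyte genes were higher (median 3.93), with Pf4, platelet factor 4, at 63.1, 75.6 and 49.2 CPM in Control and 529, 656 and 427 CPM in 4T07 lungs. Itga2b, the platelet integrin, changed by 4.03.

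Eosinophil and basophil genes were among the largest changes. Prg2, the eosinophil major basic protein, went from 0.872, 0.361 and 0.324 CPM in Control to 938, 986 and 672 CPM in 4T07 lungs, with 1220, 1089 and 1676 CPM in 4T07 spleens. Epx, eosinophil peroxidase, had 2 counts in the Control and 1441 in the 4T07 lungs, a ratio of 887 (95% interval 245 to 7334). Of the 8 eosinophil genes 6 were higher, and the pair that fell, Siglecf and Ear2, are also genes of alveolar macrophages. Prss34, a basophil protease, had no count in the Control lungs and stood at 55.5, 64.2 and 47.9 CPM in the 4T07 lungs, at least 326-fold higher against a floor of 3 counts over the group. Mcpt8, another basophil protease, rose by 7.42 ± 0.41 (SE, adjusted p = 9.52e-11), and 8 of 11 mast cell and basophil genes were higher. Among the largest changes was also 4930438A08Rik, with 0 counts in the Control lungs and 18.0, 19.8 and 15.8 CPM in the 4T07 lungs, at least 104-fold higher.

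Genes of dividing cells rose. Of 39 cell cycle genes 38 were higher and none was lower, with a median of 3.60, and 9 were spleen-restricted. Mki67, the proliferation marker Ki-67, stood at 25.6, 18.9 and 26.2 CPM in Control lungs, 417, 487 and 360 CPM in 4T07 lungs and 474, 657 and 603 CPM in 4T07 spleens, a change against Control lungs of 4.22 ± 0.25 (SE, adjusted p = 2.74e-10). The 4T07 lungs stood far above the Control lungs and overlapped the spleens. Top2a, a topoisomerase of dividing cells, changed by 3.92 and Birc5, survivin, by 4.74. In 4T1 lungs 5 cell cycle genes were higher than in the same Control lungs, and 38 were higher in 4T07 than in 4T1 lungs.

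Of 20 B cell genes 15 were higher (median 1.76), and their sum was 586 to 707 CPM in Control lungs, 2436 to 3383 CPM in 4T07 lungs and 487 to 527 CPM in 4T1 lungs. Ighm, the IgM heavy chain, changed by 3.67, Igkc, the kappa light chain, by 4.18 and Jchain, which joins IgM and IgA, by 3.19. Of 19 plasma cell genes 13 were higher and 2 (Sdc1 and Prdm1) lower (1 lower without library 26, library 27 or Control library 4), and of 23 T cell genes 9 were higher and none lower, with Trbc2, a T cell receptor constant chain, at 1.07, or 0.87 and under 2-fold without library 26. Immunoglobulin genes have near-identical copies, so single members are uncertain. Of 15 cytotoxic genes 2 were higher and 2 lower, near the shares of 16.6% higher and 15.1% lower over all genes. The count of lower genes was 1 without library 27 or Control library 4 and 3 without library 25. Nkg7 of killer cell granules rose by 2.54 and Gzma, granzyme A, fell from 98.7, 90.5 and 58.6 CPM to 31.1, 36.5 and 27.8 CPM (-1.32), which turned to 0.39 on the lung-restricted scaling. In 67NR lungs Gzma was -1.28 against the same Control lungs.

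Macrophage genes moved both ways. Alveolar macrophage genes were lower in 10 of 15 cases and higher in 1, with a median of -1.57 that became 0.04 relative to lung genes. Only 3 of the 15 were lung-restricted, so the scaled median is not informative about the lung tissue. Siglecf, a lectin of alveolar macrophages, was at 28.1, 20.9 and 14.2 CPM in Control and 9.95, 6.40 and 6.29 CPM in 4T07 lungs (-1.43, which turned to 0.21 on the lung-restricted scaling), and Ear2, a ribonuclease of the same cells, at 59.1, 77.9 and 31.7 CPM and 12.5, 14.5 and 9.11 CPM (-2.16, or -0.46 on that scaling). Ear2 was also -1.67 in 67NR and -1.67 in 4T1 lungs against the same controls. The gene that was higher, Marco, a scavenger receptor also made by marginal zone macrophages of the spleen, went from 11.3, 14.2 and 3.72 CPM to 90.6, 113 and 89.2 CPM, beside 97.4, 79.2 and 102 CPM in 4T07 spleens. Of 25 monocyte and macrophage genes 11 were higher and 2 lower. C1qa, a complement subunit of tissue macrophages, changed by 2.10 and Ly6c2, a marker of classical monocytes, by 2.47, while Csf1r, the macrophage growth factor receptor, at 0.90, was under 2-fold. The chemokine Ccl6, abundant in alveolar macrophages, stood at 730, 719 and 503 CPM in Control lungs and 180, 170 and 177 CPM in 4T07 lungs (-1.84), near the 209, 187 and 180 CPM of the 4T07 spleens, and its change shrank to -0.16 on the lung-restricted scaling.

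Of 16 tested genes of spleen stroma and red pulp 13 were higher and 1 was lower, with Vcam1, an adhesion molecule, at 1.49, and Hmox1, which degrades heme, at 2.52. The exocrine pancreas list held 39 genes, and 30 of them passed the filter on counts. Of these 28 were higher and 1 (Gnmt, which the liver makes in abundance) was lower. The median was 6.55, or 5.72 with the 6 genes absent from a group set at the floor of 3 counts. The whole list summed to only 32.7 to 46.9 CPM in Control lungs. A gene nearly absent there could pass the filter only through the 4T07 lungs, so the share called higher was partly set by the filter. Cela1, an elastase, was at 8.72, 10.8 and 6.31 CPM in Control lungs, 218, 187 and 145 CPM in 4T07 lungs and 32.7, 165 and 135 CPM in 4T07 spleens, and Prss2, a trypsinogen, at 0.349, 0.361 and 0.486, at 35.8, 59.5 and 39.3 and at 0.206, 41.9 and 55.6 CPM. All 3 4T07 lungs and 2 of 3 4T07 spleens were high, and spleen 28 was low. The sum of the list was 897 to 1178 CPM in the 4T07 lungs and 146, 1690 and 132 CPM in the Control spleens, and of the lungs and spleens compared Control spleen 8 was the highest. No pancreas gene of the list differed by call between 4T07 lungs and 4T07 spleens. The 4T07 spleens were unequal, with sums of 44.7, 881 and 1044 CPM, so the absence of calls does not show equal levels.

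Lists tied to the response to tumors were mixed. Of 34 pre-metastatic niche genes 10 were higher and 11 lower. The higher ones by level were S100a8, S100a9, Lcn2 and Itga4, and the lower ones Kdr, Fn1, Chil1 and Postn. Of 17 protease genes 3 were higher, near the share of 16.6% over all genes, and 6 were lower. Among the higher ones were Mmp8, the neutrophil collagenase, at 4.02 and Mmp9, gelatinase B, at 4.39. Of 27 chemokine genes 11 were higher and 7 lower, with Cxcl13, which guides B cells to follicles, at 2.98 and Ccl8, which draws monocytes, at 3.31. Of 49 interferon-stimulated genes 15 were higher and 2 (Slfn5 and Ifit3) lower (1 lower without library 26 or Control library 4 or 6). Rsad2, viperin, stood at 103, 102 and 75.1 CPM in Control lungs, 1403, 1378 and 858 CPM in 4T07 lungs and 1774, 2375 and 2040 CPM in 4T07 spleens, with a change of 3.76 ± 0.24 (SE, adjusted p = 7.10e-10). Igtp, an interferon-induced GTPase, changed by 1.58 and Tap1, the peptide transporter, by 2.11. Of 10 MHC class II genes 5 were higher, with the invariant chain Cd74 at 1.11, which fell under 2-fold without library 25 (1.00) or without Control library 5 (0.96). Without library 25 or 26 the list had 3 genes higher.

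Of all genes tested 16.6% were higher and 15.1% lower, and the counts for hypoxia, clock, cytotoxic and dendritic cell genes were near these shares. Hypoxia and glycolysis genes were higher in 3 and lower in 4 of 21 cases, immediate early and heat shock genes higher in 1 and lower in 6 of 20, and clock genes lower in 3 of 17. Dendritic cell genes were higher in 3 of 15 cases. Xenobiotic and lipid metabolism genes of lung were lower in 12 of 21 cases, adipocyte and muscle genes lower in 8 and higher in 1 of 14 (0 higher without library 25 or Control library 6), cardiac muscle genes lower in 3 of 14 (9 without library 27), and mitochondrial transcripts lower in 1 of 9 (0 without Control library 4). Of the 9 genes of the study's scaffold signature 3 were lower in 4T07 lungs and none was higher: Fhl1 at -1.98, Pja2 at -1.64 and Slc1a3 at -1.58. On the lung-restricted scaling, which moves all genes upwards, these were -0.42 for Fhl1, 0.06 for Pja2 and 0.05 for Slc1a3.

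The 5 genes with the largest fall, Fgb, Apoa2, Alb, Ahsg and Ttr, are known liver products, and they were high in 1 Control library. Alb, albumin, stood at 7.84, 142 and 3.88 CPM in Control lungs and 0.635, 0.206 and 0 CPM in 4T07 lungs. Apoa2, an apolipoprotein, stood at 0.523, 47.8 and 0.971 CPM and 0.212, 0 and 0 CPM. Library 5 was the high one in both, as it was for Fgb, Ahsg and Ttr. The fitted changes were -7.34 for Alb, -6.28 for Ahsg and -5.87 for Ttr, and without Control library 5 they were -4.22 for Alb, -3.43 for Ahsg and -1.29 for Ttr, whose call was then lost (adjusted p = 0.44). Alb was -8.60 and Ttr -6.55 without library 25, and Ahsg -7.23 without library 27. Fgb, a fibrinogen chain, had no count in any 4T07 lung, and Apoa2 had a count in library 25 only, so no fold is given for them.

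Genes abundant in 4T07 tumors and nearly absent from Control tissues were low in 4T07 lungs. The 10 genes used had a mean of at least 20 CPM in 4T07 primary tumors and at most 1 count in each Control lung and Control spleen. Their summed counts were 47, 33 and 27 in 4T07 lungs, 2, 2 and 1 in Control lungs, 117, 99 and 35 in 4T07 spleens and 24, 39 and 14 in 4T1 lungs. The Control lungs were held near 0 by the rule, so they are no comparison. In CPM this sum was lower in the 4T07 lungs than in every 4T07 spleen, but narrowly, at 9.95 in library 25 against 10.02 in spleen 30. The order did not hold for the genes as a set. Csn3 was lower in the lungs, at no more than 3.39 CPM against 19.8, 13.5 and 5.73 CPM in the spleens. Wfdc18 was slightly higher in every 4T07 lung than in every 4T07 spleen, and Rnase2a overlapped. Csn2, beta casein, the most abundant of the 10 in the tumors, had 1, 1 and 0 counts in the 4T07 lungs. The counts came from Rnase2a, Csn3 and Wfdc18, which had 6 to 17, 6 to 16 and 7 to 8 counts in each 4T07 lung, while no other of the 10 genes exceeded 3. Wfdc18 also made up most counts of the 4T1 lungs, and Rnase2a has close copies among the eosinophil ribonucleases, so its counts are uncertain. Rhox5, a homeobox gene found in many tumor lines, was not in this set, since its 4T07 tumor mean was under 20 CPM. It had no count in the Control lungs and stood at 40.9, 14.9 and 9.33 CPM in 4T07 lungs, 19.3, 5.62 and 2.54 CPM in 4T07 tumors and 77.6, 87.8 and 27.8 CPM in 4T07 spleens, and was at least 126-fold higher in 4T07 than in Control lungs, or at least 70.8-fold without library 25, where it was highest.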

How the data were processed

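Bulk RNA of mouse lungs, spleens and tumors was sequenced from 3′ ends with a kit that carries unique molecular identifiers. The submitters' processing notes name Trim Galore 0.5.0, STAR 2.6.0 and featureCounts. The genome build, and whether the identifiers were collapsed, are not given in the sources used here. The values the authors deposited are raw counts per gene symbol, and nothing was normalized by them. Of 55487 lines, 120 that repeated a symbol were summed. 27 of the 45 columns were used and 18 were not.

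Genes with more than 10 counts over the 6 lungs (19566) were tested with edgeR 4.0.16 (R 4.3.3): TMM scaling, glmQLFit and glmQLFTest on all 12 lungs in 4 groups, and on 6 lungs and 6 spleens for the comparison between tissues. A gene was called at a Benjamini-Hochberg adjusted p below 0.10 and a change over 2-fold. All adjusted p-values and log2 fold changes in the text come from these fits. Exact permutation of 3 against 3 libraries cannot give a p below 0.10, so no single gene was tested that way. Libraries held 3491888 to 7081417 counts. The labels give condition, tissue and library number and name no mouse, so p-values measure the spread between these samples. Replicate pairs differed by more than sampling noise (chi-square per degree of freedom 5.75 to 28.7 over 18 pairs), so none was counted as 1 sample. Data were simulated over 19566 genes for the comparison of 4T07 with Control lungs. There 97% of genes changed by 1.5 and 99% of genes changed by 2 on the log2 scale were recovered. For 4T07 lungs against 4T07 spleens the shares were 89 and 95%. The simulation gave every gene the same spread between replicates and changed only 100 genes by each size, all with ample counts. It therefore does not give the power for genes with few counts or a wider spread.

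Genes were named by a rule: the 10 largest called changes in each direction without overlap of the groups and with a mean of at least 5 CPM in the higher group, the 5 largest in each direction among lung-restricted genes, the 10 highest of those called above both groups, up to 4 called members of each list in each direction, the first 3 of each list, and genes of interest in the study. The members and lists were chosen with earlier results of these data known. Alternatives were DESeq2 1.42.0, its size factors, scaling on lung-restricted genes, other count filters, only the 6 lungs in the fit, another class ratio and leaving out each library.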

Additional observations from a re-analysis of the deposited data

Results flagged for a closer look

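The difference between the effect of 4T07 in lungs and its effect in spleens was itself tested in edgeR over 12 libraries. It was called higher in lungs for 2553 genes (13.0%) and lower for 1672 (8.55%). Among all 19566 genes tested, the lungs rose while the spleens fell in only 238, against 100 the other way. On the log2 scale the lung effect exceeded the spleen effect by 5.85 for Tlx1, 4.64 for Spic, 4.39 for Jchain, 5.32 for Marco and 2.29 for Trbc2. It was below the spleen effect, at -5.28 for Sftpc, -5.68 for Sftpa1, -6.91 for Scgb1a1, -9.24 for Scgb3a2, -2.67 for Fn1, -3.58 for Siglecf and -3.46 for Fhl1. These 12 are the named genes called in opposite directions in the 2 tissues, with the difference between tissues also called. Their opposite movement was therefore fixed by the choice and is a description. The first 5 were lower in 4T07 than in Control spleens and higher in 4T07 than in Control lungs. Airway genes stood low in both groups of spleens. The club, goblet and ciliated list summed to 215 to 272 CPM in Control spleens and 651 to 851 CPM in 4T07 spleens. In Control lungs the sum was 20773 to 28413 CPM. How much of these differences comes with RNA of another tissue, in lungs or in spleens, was not tested.

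The lungs of the 3 tumor lines also differed from each other. Tested directly, 3097 genes were higher and 3196 lower in 4T07 than in 67NR lungs, and 2586 were higher and 2462 lower in 4T07 than in 4T1 lungs.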

How the results depend on the processing

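No paired analysis was possible because the labels give no replicate numbers that tie a lung of one group to a lung of another. Scaled on lung-restricted genes, 13662 genes were higher and 169 lower, 40 lung-restricted genes were lower, 6237 shared genes were higher and 0 were lower. With at least 10 counts in each lung, which tests fewer genes, 1814 were higher, 1522 lower and 27 spleen-restricted genes higher. With a class ratio over 5, which admits more genes, 1271 lung-restricted genes were lower and 710 spleen-restricted higher. The genes called higher than both Control lungs and 4T07 spleens numbered 37 in DESeq2 and 24 to 71 without each 4T07 lung (an alternative chosen after seeing the data), lowest without library 27. Genes lower in 4T07 lungs than in 4T07 spleens numbered 196 to 560, lowest without library 27, and 233 without spleen 29 (also chosen after seeing the data). The cause was not tested. The lung-restricted scaling moves the median of all genes from -0.01 to 1.63, so modestly lower genes change sign on it by construction. Among the named genes that were followed through the alternatives, these were Ager (0.15), Cldn5 (1.10), Col1a1 (1.34), Fn1 (0.35), Gzma (0.39), Hopx (0.80), Kdr (0.17), Lyz2 (0.34), Pecam1 (0.58), Pja2 (0.056), Scgb1a1 (0.32), Sftpb (0.71), Siglecf (0.21) and Slc1a3 (0.053). Foxj1 ranged from -0.20 without library 27 to 0.73 without library 26 and changed sign in the former. Calls for Pecam1 (-0.95) and Scgb1a1 (-0.85) fell under 2-fold without library 26, and Hopx (-1.05), Sftpb (-1.12) and Csf1r (1.06) passed it without library 27. DESeq2 gave no adjusted p for 3 named genes (Apoa2, Ahsg and Ttr). Every other named gene that was followed through the alternatives kept its sign in each in which it was tested. Genes named only as members of a count, such as Slfn5, Ifit3, Sdc1, Prdm1, Krt5 and Cxcr2, were not followed.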
